A study of Mus musculus with 6 samples.

Results

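The mitochondrial solute carriers of the SLC25 family were examined for H3K9ac, a histone H3 acetylation that marks active promoters and enhancers, in lung endothelial cells isolated from mice. Members were all peaks of the deposited table whose gene symbol is Slc25a followed by a number. This gave 41 peaks assigned to 31 genes, of 17901 peaks in all. The mark was measured by CUT&RUN, in which a nuclease releases the DNA under an antibody-bound protein for sequencing. Cells came from CSE-KO mice (Cre-positive, 3 libraries) and WT mice (Cre-negative, 3 libraries). CSE is cystathionine gamma-lyase, which is encoded by Cth and makes cysteine from cystathionine. The comparison asks how its loss alters H3K9ac at these genes. No source used here gives the promoter that drives Cre or the strain and age of the mice. Whether each library is a separate animal is not stated in the labels, and p-values therefore cover only the spread among these libraries, which could be technical.

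SLC25 proteins are carriers that move small solutes across the inner mitochondrial membrane, which is closed to charged metabolites. They exchange ADP for ATP, bring in phosphate, amino acids, cofactors and iron, and export intermediates of the citric acid cycle. A few members sit elsewhere, as Slc25a17 does in the peroxisome and Slc25a46 in the outer mitochondrial membrane. In endothelial cells, mitochondria are known more for biosynthesis and signalling than for bulk ATP supply.

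The peaks held 679938 to 1173016 counts in CSE-KO libraries and 313610 to 676056 counts in WT libraries, so every CSE-KO library was deeper. SLC25 peaks took 0.168% to 0.180% of these counts in CSE-KO libraries and 0.169% to 0.171% in WT libraries. All 13 endothelial marker genes examined had at least 1 peak, with summed levels of 2324 to 2615 CPM (the count scaled to the same effective library size in all libraries) in CSE-KO and 2534 to 2660 CPM in WT libraries. None of 8 leukocyte markers had a peak, while 3 of 7 epithelial markers did, with summed levels of 179.8 to 227.6 CPM in CSE-KO and 195.8 to 238.7 CPM in WT libraries. Among 7 mesenchymal markers the exception was Col1a1, with 21.9 to 50.8 CPM in CSE-KO and 32.3 to 46.0 CPM in WT libraries. No epithelial or mesenchymal marker peak lay at a start, while 7 of the 40 endothelial marker peaks did. In all of these lists, peaks away from a start carry the name of the nearest start. WT replicate 2 stood apart as the shallowest library, and some peaks were nearly empty in it alone. Its CPM was under 1/8 of the next lowest at 23 of 13898 peaks with a mean count of 15 or more (0.165%), against 0 or 1 such peaks in each other library. In bulk libraries, fewer cells that carry the mark and less mark per cell cannot be told apart.

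RefSeq lists 47 mouse genes with such a symbol, and 31 of them had a peak. Of the 41 peaks, 24 lay at the transcription start of their own gene, 1 for each of 24 genes, with a centre within 1 kb of the start or a promoter annotation. Another 6 peaks lay inside their own gene, 6 inside a different gene and 5 between genes. The symbol of a peak is that of the nearest start, so peaks of the last 2 kinds carry an SLC25 name by distance alone. Slc25a51 had the most peaks, with 5, of which 3 lie in introns of Shb. The sole peaks of Slc25a18, Slc25a34 and Slc25a47 lie in Atp6v1e1, Plekhm2 and Wars. The iron carrier gene Slc25a37 had 4 peaks, all in intron 1 of its own gene, and none at its start. The start peaks of Slc25a24, Slc25a28 and Slc25a44 covered the start of another gene (Gm19391, BC037704 and Gm33513, respectively). Reads of the genes in each pair cannot be told apart there.

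The 16 genes without a peak include the citrate carrier Slc25a1 and the oxoglutarate carrier Slc25a11 of the malate-aspartate shuttle. A peak named for a neighbour lay over 3 of them: Rnf167 over Slc25a11, Cog3 over Slc25a30 and Dbf4 over Slc25a40, where it covered the Slc25a40 start. The other 13 had no deposited peak over the gene. Peaks named for other genes still lay 0.148 kb from Slc25a15, 0.16 kb from Slc25a29 and 0.653 kb from Slc25a41. For comparison, the start peak named for Slc25a42 lies 151 bp from its gene.

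Promoters of 5 members are shown. Their start peaks had the highest level of the family (Slc25a3), groups that did not overlap (Slc25a16, Slc25a28 and Slc25a42), or a near-empty library (Slc25a36). Groups did not overlap at the starts of Slc25a22, Slc25a38 and Slc25a32 either, whose promoters are not shown. For Slc25a32 no promoter was available. Each printed promoter is a window of 300 bases around the start from RefSeq on GRCm38.p6, printed 5′ to 3′ on the strand of the gene. The windows are chr10:91123918-91124217 on the minus strand for Slc25a3, chr10:62920383-62920682 on the plus strand for Slc25a16 and chr19:43674832-43675131 on the minus strand for Slc25a28. They are chr8:70212232-70212531 on the minus strand for Slc25a42 and chr9:97110992-97111291 on the minus strand for Slc25a36. Capitals mark matches, on either strand, to 5 short motifs: SP1 (GGGCGG), ETS (CCGGAAG), YY1 (AAGATGGCG), the CCAAT box (CCAAT) and CRE (TGACGTCA).
Slc25a3: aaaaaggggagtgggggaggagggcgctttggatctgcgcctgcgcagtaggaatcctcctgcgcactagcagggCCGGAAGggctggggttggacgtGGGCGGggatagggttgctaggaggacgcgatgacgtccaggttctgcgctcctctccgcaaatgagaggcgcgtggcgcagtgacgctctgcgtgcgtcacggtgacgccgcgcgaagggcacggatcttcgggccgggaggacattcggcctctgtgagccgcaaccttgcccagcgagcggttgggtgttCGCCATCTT
Slc25a16: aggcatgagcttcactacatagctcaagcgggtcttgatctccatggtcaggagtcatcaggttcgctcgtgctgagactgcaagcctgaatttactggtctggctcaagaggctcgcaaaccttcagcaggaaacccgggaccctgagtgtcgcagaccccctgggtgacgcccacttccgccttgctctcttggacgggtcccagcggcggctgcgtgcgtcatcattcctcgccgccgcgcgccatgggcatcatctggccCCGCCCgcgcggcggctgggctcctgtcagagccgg
Slc25a28: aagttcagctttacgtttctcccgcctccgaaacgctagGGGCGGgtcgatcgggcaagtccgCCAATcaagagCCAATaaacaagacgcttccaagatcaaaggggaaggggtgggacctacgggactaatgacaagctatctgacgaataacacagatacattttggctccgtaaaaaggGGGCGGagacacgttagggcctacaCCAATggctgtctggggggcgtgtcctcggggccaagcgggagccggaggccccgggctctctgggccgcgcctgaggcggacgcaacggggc
Slc25a42: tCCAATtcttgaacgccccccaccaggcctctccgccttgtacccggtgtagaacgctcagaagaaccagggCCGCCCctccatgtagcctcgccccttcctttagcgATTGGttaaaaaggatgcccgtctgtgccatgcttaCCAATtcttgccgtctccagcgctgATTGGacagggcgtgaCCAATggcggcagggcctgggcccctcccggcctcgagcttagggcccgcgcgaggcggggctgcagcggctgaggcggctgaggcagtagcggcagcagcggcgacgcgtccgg
Slc25a36: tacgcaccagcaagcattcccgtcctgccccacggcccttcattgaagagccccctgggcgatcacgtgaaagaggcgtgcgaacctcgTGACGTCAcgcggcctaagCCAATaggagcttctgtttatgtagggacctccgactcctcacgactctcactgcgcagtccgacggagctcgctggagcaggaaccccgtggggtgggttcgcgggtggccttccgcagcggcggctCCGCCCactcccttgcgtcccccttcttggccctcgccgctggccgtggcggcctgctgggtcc

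The RefSeq table held 46 promoters of 36 of the 47 genes. A deposited peak covered the start in 12 of these 46 (26.1%), against 20.6% of all 32851 mouse promoters. The 12 belong to 11 genes, with overlapping windows of Slc25a14 among them, and the Slc25a40 start is covered by a peak named for Dbf4. Start peaks that lie just beside the start base, as at Slc25a4, Slc25a5, Slc25a13 and Slc25a38, do not count as covering it. The SP1 motif was in all 12 covered SLC25 promoters, in 38 of the 46 (82.6%), in 67.5% of all covered promoters and in 35.7% of all promoters. The ETS motif was in 3 of the 12 (Slc25a3, Slc25a17 and Slc25a20), or 25.0%, against 23.1% of all covered promoters and 8.86% of all promoters. The YY1 motif was in Slc25a3 alone among the 46, against 4.04% of all covered promoters and 1.40% of all promoters. The CRE motif was in Slc25a25 and Slc25a36, against 4.18% of all covered promoters and 1.79% of all promoters. The CCAAT box was in 4 of the 12 (33.3%) and in 22 of the 46 (47.8%), against 38.8% of all covered promoters and 37.4% of all promoters. Slc25a42 held 5 CCAAT matches, a count that 0.708% of all covered promoters and 0.271% of all promoters reach or pass. Slc25a28 and a promoter of Slc25a25 held 3, which 6.64% of all covered promoters and 3.37% of all promoters reach or pass. Of motifs not capitalised above, the E-box (CACGTG) was in 8 of the 46 SLC25 promoters (17.4%) and in 7.15% of all promoters. NRF1 (GCATGCGC) was in 2 (4.35%, against 2.71%), the TATAAA motif in 2 (4.35%, against 13.6%), ERR (AAGGTCA) in 1 (2.17%, against 4.72%) and ATF4 (TGATGCAA) in 0 (against 0.895%). Among all covered promoters the shares were 10.7% (E-box), 6.32% (NRF1), 5.61% (TATAAA), 2.48% (ERR) and 0.399% (ATF4). Of the 12 covered SLC25 promoters, 2 held the E-box and 0 held any of the others. The Slc25a42 peak does not cover the start; it overlaps the upstream end of the printed window. The 5 motifs do not overlap in the printed windows, and a match is a description of letters, not a binding site.

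Start peaks of SLC25 genes were narrow. Their median width was 707 bp, against 1073 bp over all 8021 start peaks. Their centre lay downstream of the start in 21 of 24 (87.5%), against 82.0% of all start peaks, at a median distance of 266.5 bp against 276 bp. A CpG island was named by the deposited annotation at 6 of the 24 (25%), against 16.7% of all start peaks. Levels between genes were compared as CPM per kb of peak. The median over the 24 was 53.3 CPM per kb, against 58.8 CPM per kb over all start peaks.

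**Figure D1:**
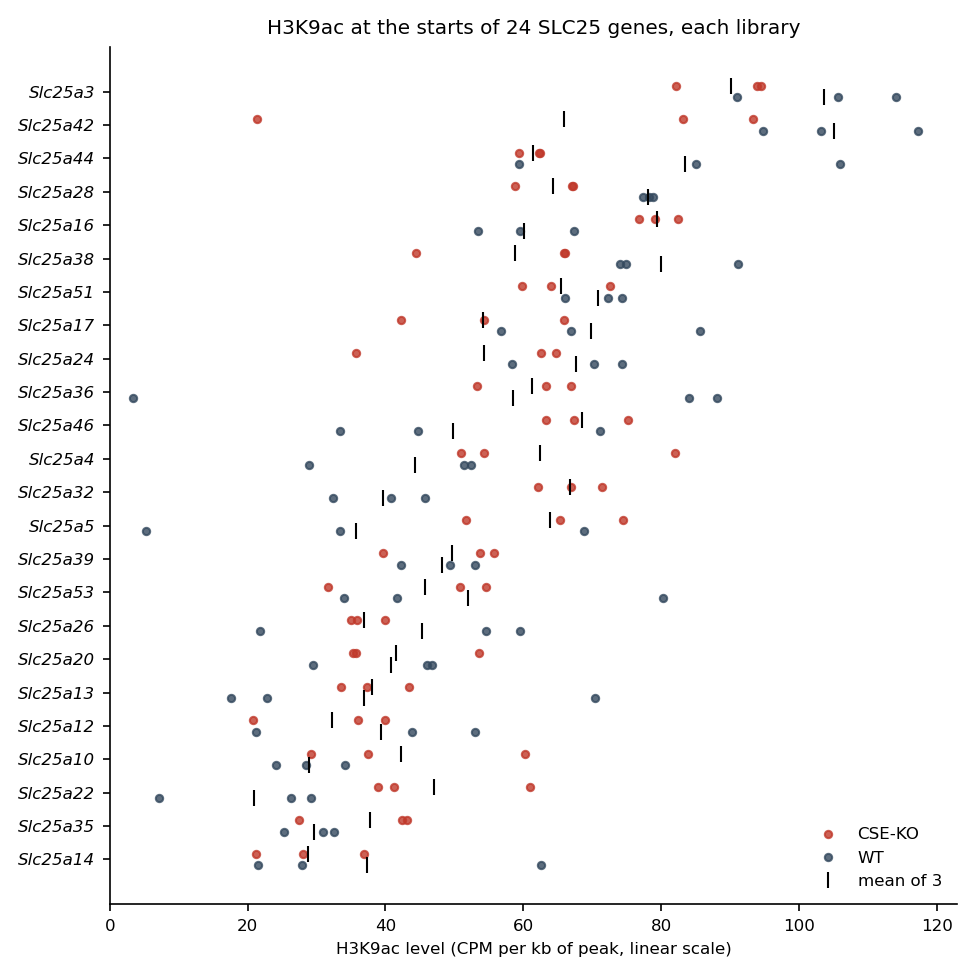
H3K9ac level at the start peaks of 24 SLC25 genes on a linear scale in CPM per kb of peak, with 1 point per library (CSE-KO above WT on each line) and a bar at the mean of 3. Genes run from Slc25a3 (mean 96.9 CPM per kb) at the top to Slc25a14 (33.0 CPM per kb) at the bottom, and WT points near 0 for Slc25a36, Slc25a5 and Slc25a22 are WT replicate 2.

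Slc25a3, the phosphate carrier that supplies ATP synthase, stood highest, at 90.2 ± 6.98 CPM per kb in CSE-KO and 103.6 ± 11.7 CPM per kb in WT libraries (SD, n = 3 each). Its mean of 96.9 CPM per kb lies at percentile 92.0 of all start peaks. The coenzyme A carrier gene Slc25a42 came next, at 66.0 ± 39.0 CPM per kb in CSE-KO and 105.1 ± 11.4 CPM per kb in WT libraries, which overlaps the range of Slc25a3. Below it, Slc25a44, Slc25a28, Slc25a16, Slc25a38 and Slc25a51 had means of 68.2 to 72.4 CPM per kb, a gap smaller than the SD of most of them. The lowest were Slc25a22 (34.0), Slc25a35 (33.7) and Slc25a14 (33.0 CPM per kb), which likewise lay within each other's spread. Away from starts, the highest member was the Slc25a37 peak 1293 bp downstream of the start, at 91.1 CPM per kb.

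Between CSE-KO and WT libraries, no SLC25 peak passed the test. Counts were compared by edgeR's quasi-likelihood test with Benjamini-Hochberg adjustment over all 16134 tested peaks and a threshold of 0.05. Of the 41 SLC25 peaks, 37 had counts high enough to test, 23 of them at a start. Of these 37, 0 were called, against 14 of all tested peaks (0.0868%), and the smallest adjusted p of a member was 0.52. At an unadjusted p under 0.05 there was 1 SLC25 peak, at the Slc25a32 start, against 7.08% of all tested peaks. It was higher in CSE-KO, as were 3.01% of all tested peaks at that p. DESeq2 and voom likewise called 0, with 1 and 2 SLC25 peaks at an unadjusted p under 0.05. Untested for low counts were the peaks of Slc25a14, Slc25a18 and Slc25a34 and the Slc25a10 peak 18745 bp downstream of its start, at mean levels of 31.4 to 57.1 CPM per kb.

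The fitted log2 fold changes (CSE-KO over WT) spread to both sides of 0. Over the 23 start peaks, 12 lay below 0 and 11 above, with a median of -0.09. Over all 7784 tested start peaks, 53.0% lay below 0 and the median was -0.02. Over the 37 SLC25 peaks the median was 0.01, and 28 lay within 0.5 of 0. The median standard error (SE) was 0.35 over the SLC25 peaks and 0.30 over all tested peaks. Changes of about that size were below what could be detected at this depth, and larger ones, up to 1.00 at Slc25a22, did not pass either. With 1 library left out, the sign turned at 14 of the 37 peaks. The 24 start peaks together held 1267.7, 1200.2 and 1144.1 CPM in CSE-KO replicates 1 to 3, against 1173, 1240.9 and 1250.6 CPM in WT replicates 1 to 3. The groups overlapped in this sum.

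**Figure D2:**
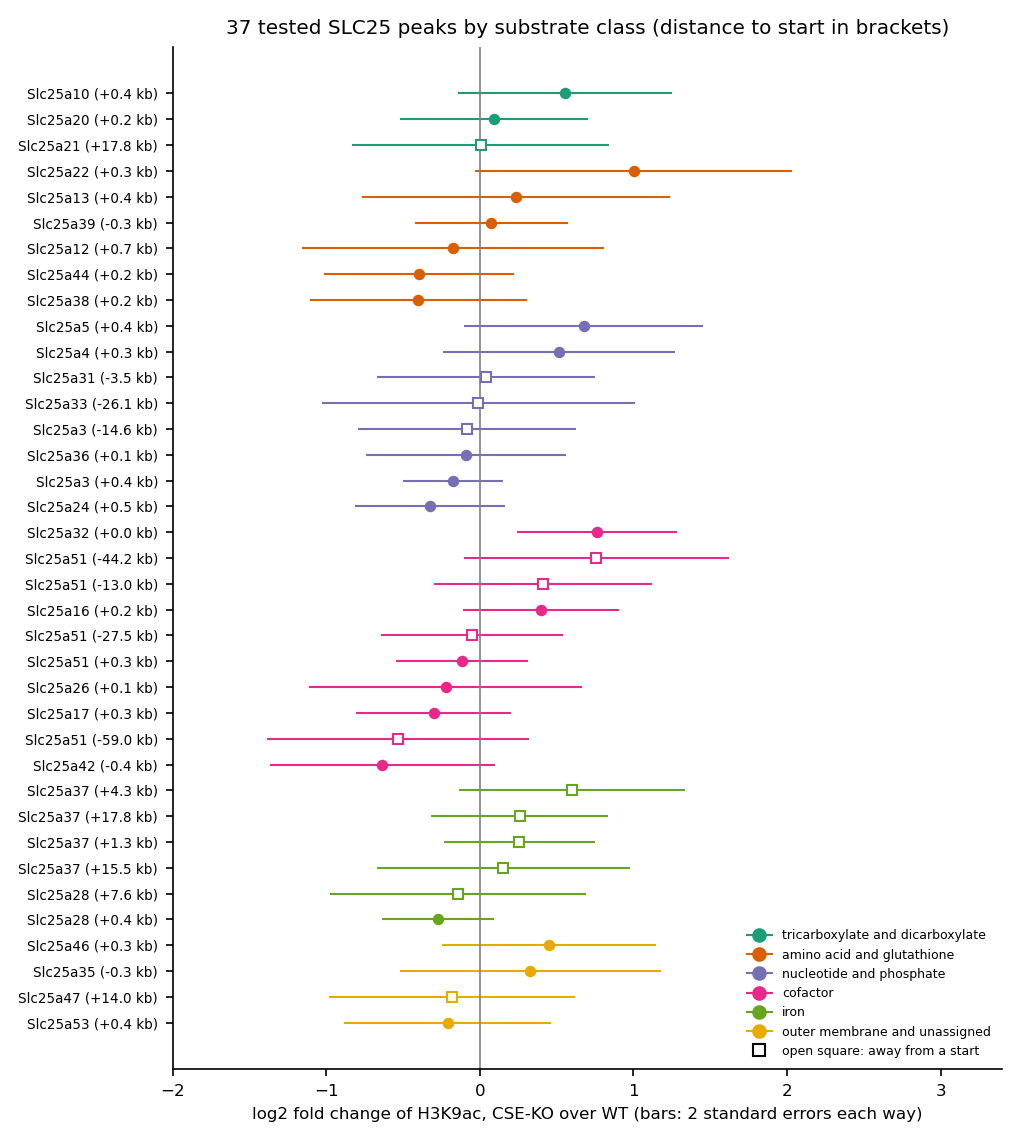
Log2 fold change of H3K9ac (CSE-KO over WT) of the 37 tested SLC25 peaks, grouped by substrate class, with bars of 2 SE each way, filled circles at a start and open squares elsewhere. Values run from -0.64 (Slc25a42) to 1.00 (Slc25a22), and the bar of Slc25a32 alone leaves out 0.

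**Figure D3:**
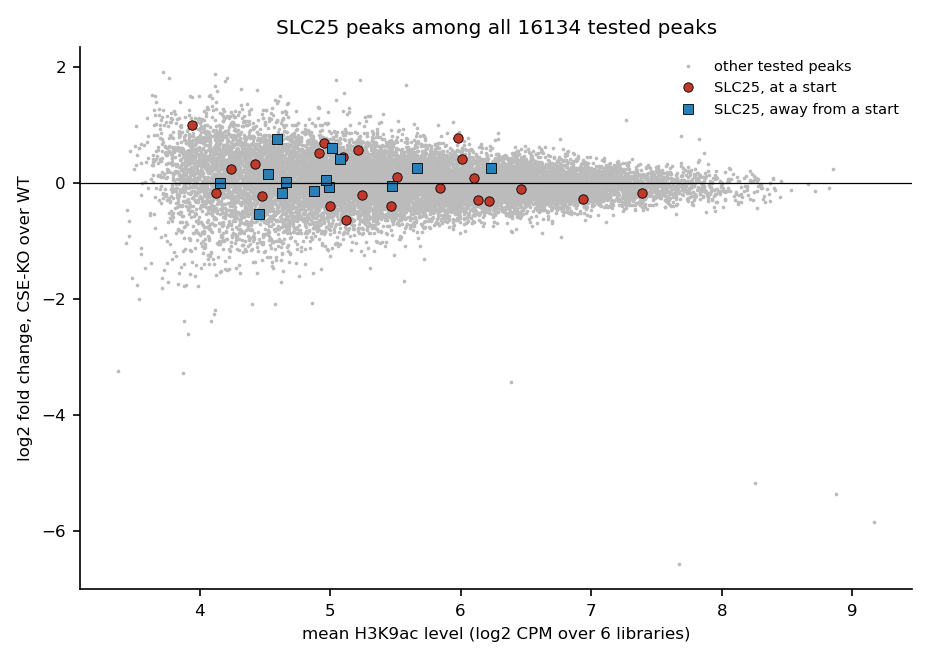
Log2 fold change (CSE-KO over WT) against mean level in log2 CPM for all 16134 tested peaks in grey, with SLC25 start peaks as circles and other SLC25 peaks as squares. The 37 SLC25 peaks run from -0.64 to 1.00, against -6.57 to 1.91 over all tested peaks.

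The cofactor carriers held the SLC25 peak with the smallest p. Slc25a32, the folate and FAD carrier, had 79.6, 84.8 and 73.9 CPM in CSE-KO libraries, against 38.6, 48.5 and 54.3 CPM in WT libraries, at its start peak (chr15:39112083-39113270 on GRCm38, as for all coordinates here). Every CSE-KO library lay above every WT library. The log2 fold change was 0.76 (SE 0.26), with an unadjusted p of 0.0053 and an adjusted p of 0.52 by edgeR. It ranged from 0.61 to 0.91 when each library was left out in turn. The authors' deposited table gives 0.73 for this peak, with an adjusted p of 0.591. The peak also reaches into the neighbouring gene Dcaf13, and reads of the pair of genes cannot be told apart in it.

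Slc25a16, a carrier linked to coenzyme A, had 76.2, 73.1 and 71.0 CPM in CSE-KO libraries, against 62.3, 54.9 and 49.4 CPM in WT libraries. Its groups did not overlap either, and the log2 fold change was 0.40 (SE 0.25, adjusted p 0.78 by edgeR). Slc25a42, the coenzyme A carrier whose promoter holds 5 CCAAT matches, had 33.9, 38.0 and 8.69 CPM in CSE-KO libraries, against 38.6, 42.0 and 47.7 CPM in WT libraries (chr8:70212432-70212838). All CSE-KO values lay below all WT values, and CSE-KO replicate 3 was far below the other 2 with 6 reads. The log2 fold change was -0.64 (SE 0.37, adjusted p 0.76 by edgeR), and -0.26 without CSE-KO replicate 3.

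Slc25a51, the NAD carrier, had 82.9, 77.5 and 94.1 CPM in CSE-KO and 96.4, 93.7 and 85.6 CPM in WT libraries at its start, and the groups overlapped (log2 fold change -0.12). Its 4 other peaks ran from -0.53 to 0.76. The highest of these, in intron 3 of Shb at -44228 bp from the Slc25a51 start (chr4:45452734-45453254), had 22.0, 35.1 and 34.8 CPM in CSE-KO and 10.4, 16.2 and 26.3 CPM in WT libraries. These groups overlapped, and the adjusted p was 0.75 by edgeR. Slc25a17, the peroxisomal carrier of coenzyme A, FAD and NAD, had a log2 fold change of -0.30, and Slc25a26, the S-adenosylmethionine carrier, one of -0.22. The 6 cofactor start peaks had a median of -0.17, with 2 above 0 and 4 below.

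**Figure D4:**
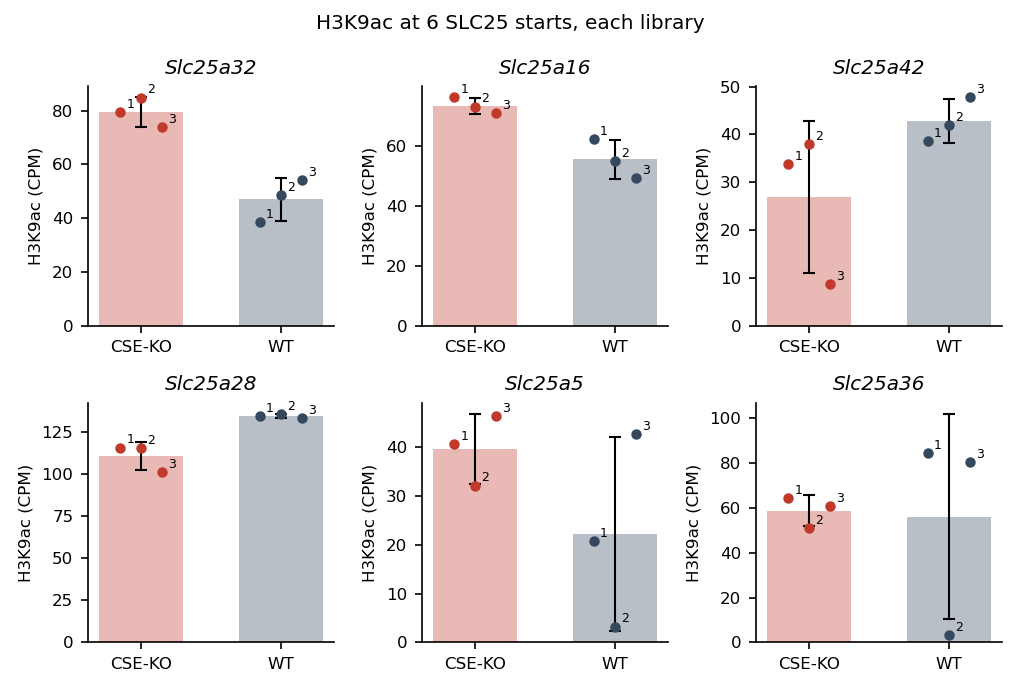
H3K9ac level in CPM at the start peaks of 6 SLC25 genes, CSE-KO left of WT, with bars at the mean of 3, error bars of 1 SD and a numbered point per replicate. The groups are apart for Slc25a32, Slc25a16, Slc25a42 and Slc25a28, while WT replicate 2 is at 3.23 CPM for Slc25a5 and Slc25a36.

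Both mitoferrins, the iron importers, had peaks. Slc25a28 (mitoferrin 2) had 115.9, 115.5 and 101.4 CPM in CSE-KO libraries, against 134.9, 135.7 and 133.3 CPM in WT libraries, at its start (chr19:43673628-43675350). The groups did not overlap, and the WT libraries were close together. This peak also covers the start of BC037704, so its reads cannot be assigned to Slc25a28 alone. The log2 fold change was -0.27 (SE 0.18, adjusted p 0.80 by edgeR). A second Slc25a28 peak, in intron 1 of 3, had a log2 fold change of -0.14, and 0.49 without WT replicate 2, whose 61.4 CPM stood above 19.3 and 18.1 CPM in the other WT libraries.

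Slc25a37 (mitoferrin 1) had values above 0 at all 4 of its intron 1 peaks, with log2 fold changes of 0.15, 0.26, 0.26 and 0.60. The peak nearest the start (chr14:69283399-69284221) had 69.4, 76.0 and 102.8 CPM in CSE-KO libraries, against 86.0, 61.4 and 54.3 CPM in WT libraries, with overlap. The peak 4307 bp downstream (chr14:69280586-69281006) had 52.5, 39.5 and 29.0 CPM in CSE-KO libraries, against 37.1, 6.46 and 29.6 CPM in WT libraries. WT replicate 2 was far below the rest there with 2 reads, the groups overlapped, and the adjusted p was 0.78 by edgeR. The log2 fold change of 0.60 became 0.30 with WT replicate 2 left out and 0.98 with WT replicate 1 left out. Summed over the 4 peaks, Slc25a37 had 194.6, 193 and 220.1 CPM in CSE-KO libraries, against 185.4, 139 and 154.7 CPM in WT libraries. Each CSE-KO sum lay above each WT sum. Sums likewise did not overlap for Slc25a10 (46.3 to 74.6 CPM in CSE-KO, against 34.1 to 45.2 CPM in WT) and Slc25a28 (121.7 to 147.2 CPM in CSE-KO, against 151.4 to 197.1 CPM in WT), so for 3 of the 5 SLC25 genes with several peaks. Over all 3587 genes with several peaks, 13.5% had sums that did not overlap. At the Slc25a10 start peak alone the groups overlapped (30.5 to 62.9 CPM in CSE-KO, against 25.2 to 35.6 CPM in WT). The other Slc25a10 peak lay between genes and was untested for low counts. Neighbouring peaks of 1 gene are not independent, and none passed the test. A difference between the 2 mitoferrin genes was not tested.

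Among nucleotide and phosphate carriers, no group pair was apart. Slc25a3 had 163.3, 162.3 and 141.9 CPM in CSE-KO libraries, against 157.2, 197.1 and 182.7 CPM in WT libraries (chr10:91122747-91124474). The groups overlapped, with a fitted log2 fold change of -0.18 (SE 0.16, adjusted p 0.87 by edgeR), and a second peak, at -14597 bp from the start, had one of -0.08. Both somatic ADP/ATP carriers with a start peak lay above 0: Slc25a4 (ANT1) at 0.52 and Slc25a5 (ANT2) at 0.68.

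Slc25a5 had 40.6, 32.2 and 46.3 CPM in CSE-KO libraries, against 20.8, 3.23 and 42.8 CPM in WT libraries (chrX:36795640-36796261). The groups overlapped through WT replicate 3, and WT replicate 2 had 1 read. The adjusted p was 0.76 by edgeR, and the log2 fold change was 0.34 when WT replicate 2 was left out, against 1.44 when WT replicate 3 was. Slc25a36, a pyrimidine nucleotide carrier, had 64.3, 51.2 and 60.8 CPM in CSE-KO libraries, against 84.5, 3.23 and 80.6 CPM in WT libraries. WT replicate 2 had 1 read there too, and the other WT libraries lay above all CSE-KO libraries. The log2 fold change was -0.09 (adjusted p 0.98 by edgeR), and -0.48 without WT replicate 2 (adjusted p 0.694). Slc25a24, a calcium-regulated ATP-Mg/phosphate carrier, had a log2 fold change of -0.32. Slc25a31, the ADP/ATP carrier of the germline, and Slc25a33, a pyrimidine nucleotide carrier, had no start peak, and their peaks between genes stood at 0.04 and -0.01.

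Amino acid and glutathione carriers lay on both sides of 0. Slc25a22, a glutamate carrier, had 18.6, 17.5 and 27.5 CPM in CSE-KO libraries, against 11.9, 3.23 and 13.2 CPM in WT libraries (chr7:141434876-141435326). Every CSE-KO library lay above every WT library, on 12 to 22 reads in CSE-KO and 1 to 8 reads in WT libraries. The log2 fold change of 1.00 (SE 0.52, adjusted p 0.72 by edgeR) was the largest in size among the 37 tested peaks, and was 0.74 without WT replicate 2. The untested peak named for Slc25a18, another glutamate carrier, lies in Atp6v1e1 and has a log2 fold change of -1.47 (adjusted p 0.878) in the authors' deposited table.

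Slc25a44, a branched-chain amino acid carrier, had the highest mean level per kb of this class (72.4 CPM per kb), close to Slc25a38 (69.4 CPM per kb). Slc25a44 had 38.1, 38.0 and 36.2 CPM in CSE-KO libraries, against 51.9, 64.6 and 36.2 CPM in WT libraries. The groups met at WT replicate 3, and the log2 fold change was -0.39 (SE 0.31, adjusted p 0.83 by edgeR). Slc25a38, a glycine carrier needed for haem synthesis, had 30.5, 20.5 and 30.4 CPM in CSE-KO libraries, against 34.1, 42.0 and 34.6 CPM in WT libraries. Its groups did not overlap, with a fitted log2 fold change of -0.40 (SE 0.35, adjusted p 0.86 by edgeR). The glutathione importer Slc25a39, whose substrate is made from cysteine, stood at 0.07 (SE 0.25), with 69.7 ± 12.3 CPM in CSE-KO and 67.6 ± 7.62 CPM in WT libraries (SD, n = 3 each). The interval of 2 SE each way ran from -0.42 to 0.57. The aspartate-glutamate carriers of the malate-aspartate shuttle had log2 fold changes of -0.18 (Slc25a12) and 0.23 (Slc25a13). Neither sign held when 1 library was left out, with ranges of -0.53 to 0.04 for Slc25a12 and -0.15 to 0.89 for Slc25a13, the last without WT replicate 2.

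Of the carboxylate carriers, the dicarboxylate carrier gene Slc25a10 had a log2 fold change of 0.56 at its start, and Slc25a20, which brings acylcarnitines in for fatty acid oxidation, one of 0.09. Slc25a21, the oxodicarboxylate carrier, had 22.0, 27.8 and 27.5 CPM in CSE-KO libraries, against 37.1, 22.6 and 14.8 CPM in WT libraries, at a peak in intron 1 of 9. The WT values enclosed the CSE-KO values, and the log2 fold change was 0.01 (SE 0.42). In the remaining class, the outer-membrane member Slc25a46 had 38.9, 36.6 and 43.5 CPM in CSE-KO libraries, against 19.3, 25.9 and 41.1 CPM in WT libraries. WT replicate 3 lay within the CSE-KO range, and the log2 fold change was 0.45 (SE 0.35, adjusted p 0.83 by edgeR). It was 0.17 with WT replicate 1 left out and 0.86 with WT replicate 3 left out. Slc25a35, Slc25a47 and Slc25a53 were at 0.33, -0.18 and -0.21.

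Groups did not overlap at 7 of the 37 SLC25 peaks, against 13.0% of all tested peaks. CSE-KO lay above WT at 4 of them (6.09% of all tested peaks), namely the starts of Slc25a16, Slc25a22 and Slc25a32 and the Slc25a37 peak 15476 bp downstream of its start. That last peak had 23.7, 26.3 and 23.2 CPM in CSE-KO libraries, against 22.2, 19.4 and 23.0 CPM in WT libraries, a narrow separation. CSE-KO lay below WT at 3 (6.90% of all tested peaks), the starts of Slc25a28, Slc25a38 and Slc25a42. These are descriptions of 3 against 3 libraries, and none of the 7 passed the test.

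Genes that act beside the SLC25 carriers gave no called peak either. Of 16 genes that import carriers into the inner membrane, 14 had peaks, and 19 peaks were tested, of which 0 were called, 2 were higher and 1 lower at an unadjusted p under 0.05 (3.01% higher and 4.07% lower over all tested peaks), and the median log2 fold change was -0.06. The smallest p was at the start of Timm22, the core of the translocase that inserts carriers, with 82.9, 111.1 and 57.9 CPM in CSE-KO libraries, against 59.3, 22.6 and 46.1 CPM in WT libraries. The groups overlapped, with a fitted log2 fold change of 0.87 (SE 0.28, adjusted p 0.45 by edgeR). A Tomm5 peak between genes had a log2 fold change of 0.70 (adjusted p 0.64 by edgeR). The lower one was the start of Timm8a1, a chaperone gene of the intermembrane space, named after its values were seen. It had 50.8, 23.4 and 49.2 CPM in CSE-KO libraries, against 63.8, 64.6 and 70.8 CPM in WT libraries, with no overlap (log2 fold change -0.66, adjusted p 0.65 by edgeR). That start peak is on chromosome X. The other tested peaks named for Timm8a1 lay between genes on chromosome 10, 236958 to 426277 bp from the annotated start. They count in this list by name alone, and their log2 fold changes ran from -0.82 to 0.74.

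Other inner-membrane transport genes had 17 tested peaks with a median of 0.04. Outer-membrane genes (Vdac1, Vdac2, Vdac3, Mtx1, Mtx2, Samm50 and Tspo), not all of them channel genes, had 12 with a median of 0.01. These include Mtx2 peaks between genes, 147913 to 288980 bp from its start. Both lists had 0 called and 0 at an unadjusted p under 0.05 by edgeR. The peaks with the smallest p were, for inner-membrane transport, an intron peak of Sfxn1, a serine transporter (log2 fold change 0.56), and one of Micu2, a regulator of the calcium uniporter (log2 fold change 0.60). For the outer-membrane list they were the starts of Mtx2 (log2 fold change -0.47) and the channel gene Vdac1 (log2 fold change 0.25).

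Of 5 genes that encode SLC25-type proteins under another symbol, 3 had a peak. Mtch1, which encodes an outer-membrane member, had a pair of neighbouring start peaks. The one at the promoter had 22.0, 20.5 and 31.9 CPM in CSE-KO libraries, against 43.0, 45.2 and 44.4 CPM in WT libraries, and the one in intron 1 had 49.1, 51.2 and 47.8 CPM in CSE-KO libraries, against 29.7, 42.0 and 24.7 CPM in WT libraries. The groups did not overlap at either peak and stood in opposite order. The log2 fold changes were -0.84 (SE 0.34, adjusted p 0.64 by edgeR) and 0.68 (SE 0.32, adjusted p 0.68 by edgeR), so neither passed the test.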

How the data were processed

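H3K9ac CUT&RUN was analysed in 3 CSE-KO and 3 WT libraries, grouped by their titles. Tools in the submitters' processing notes are DESeq2 1.36.0, featureCounts, Picard 3.1.1, Trimmomatic 0.39 and STAR 2.7.11a; no source used here gives the peak caller. The authors deposited 1 table of raw read counts per peak, with its annotation, and its other columns (normalized values, RPKM, log2 fold changes and p-values, per the file headers) were used only where the authors' deposited table is named, and the RPKM values to recover library totals. The columns other than counts are written with decimal commas. The notes name mm39, but SLC25 coordinates match RefSeq on GRCm38, which is used throughout. Normalized column names carry a different prefix for WT and CSE-KO libraries, whose meaning is not given, so groups and any such batch cannot be told apart.

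The test was edgeR 4.0.16 in R 4.3.3, after filterByExpr at a minimum count of 10 (16134 peaks kept, 1767 removed), TMM factors, glmQLFit and glmQLFTest with group as the sole term, two-sided. CPM are after TMM, and the SE of a log2 fold change is its size over the root of F. The scripts were tested on simulated data. Alternatives were RLE factors, library size alone, a mean count of 50 or more, totals implied by RPKM, no filter, DESeq2 1.42.0, voom (limma 3.58.1), robust dispersion, a replicate block, MuLV-int peaks left out and each library left out. No 2 libraries of a group agreed within sampling noise. Per-library values are given for the 6 member peaks with the smallest p, the highest level per kb in each class, and members whose groups did not overlap or that had a near-empty library; these last, the Slc25a51 start and Slc25a39 were chosen after their values were seen. Members and lists were chosen with earlier results of these data known.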

Additional observations from a re-analysis of the deposited data

How the results depend on the processing

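SLC25 peaks called stayed at 0 in all 16 alternatives, with a lowest member adjusted p of 0.496, and 23 of the 37 tested peaks kept 1 sign throughout. The count at an unadjusted p under 0.05 was 1, and 2 without the filter, 0 at a mean count of 50 or more, 2 with voom, 3 with the replicate block and 1 to 5 with a library left out. The median of SLC25 start peaks (-0.0889) was -0.192 at a mean count of 50 or more, 0.0831 with voom, 0.0697 with the replicate block, -0.161 to 0.0272 with a library left out, 0.00541 over every member peak and -0.00213 over 1 peak per gene, so its sign is not settled. Calls over all peaks (14) were 8 at a mean count of 50 or more, 9 with DESeq2, 3 without MuLV-int peaks, 15 with the replicate block and 6 to 13 with a library left out. Slc25a21 (0.0054) changed sign without the filter (-0.0016) and, with a library left out, ran from -0.307 to 0.51, at -0.0516, -0.0416 and -0.0483 in between. The cause was not tested. Same-numbered libraries deviated together with r of 0.064, 0.0125 and 0.00769 across peaks. Differently numbered ones had r of -0.0328 to 0.0178. Such values cannot decide whether the numbers pair the libraries, because counting noise at this depth would hide a shared deviation. Other scalings moved the median of all peaks by less than 0.02. Depth limits single peaks, with a mean count of 32 at the median of the tested peaks.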
